A study of Mus musculus with 10 samples.

Results

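The 2361 regions described here are autosomal sites of accessible chromatin that were present in both wild-type libraries of mouse testis cells sorted on 4C DNA content and absent from both Smarca5 knockout libraries of the same sort. Peaks of the 4 libraries' lists that shared at least 1 bp were merged into 89206 regions on chromosomes 1 to 19. A region was chosen by the presence of a peak in wild type 1 and wild type 2 and by the lack of one in knockout 1 and knockout 2, which held for 2.65% of the regions. Since these 4 lists selected the members, the members' presence, number and peak strength in them are given as a description, with no test. The lists of cKIT+ cells and the RNA of single cells did not enter this rule, which was set with earlier results of these data known.

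Knockout animals, abbreviated cKO, carried 1 floxed and 1 deleted Smarca5 allele with a germ-cell Cre under the Ddx4 promoter (Smarca5 fl/delta; Ddx4-Cre+), and the comparison animals were wild type C57BL6. The labels give the wild-type animals neither the floxed allele nor Cre, so loss of Smarca5, the transgene and any difference in background cannot be told apart. Each of the 8 ATAC-seq libraries, 2 for each sort and genotype, started from 50000 cells, sorted as cKIT+ (a surface marker of differentiating spermatogonia) or on 4C DNA content, a gate whose libraries are labelled as pachytene spermatocytes and that can hold other cells with replicated DNA. The 2 single-cell RNA samples of whole testis were both cKO, so gene expression could be compared between cell classes but not between genotypes. Ages were not given in the sources used here, and the labels do not say that replicates came from separate animals, so every p measures only the spread between these samples.

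SMARCA5 is an ATPase of ISWI remodelers, which slide and space nucleosomes and open sites for DNA-binding proteins. ATAC-seq inserts sequencing adapters into DNA that nucleosomes leave free, and a peak marks a stretch where insertions pile up over the local background. In pachytene spermatocytes homologous chromosomes are synapsed, recombination is completed, and a large set of genes for spermatid differentiation is switched on.

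The sequences at the gene starts that the results return to are shown first, because a region over a start can be tied to a gene most directly. Of the RefSeq promoter windows on chromosomes 1 to 17 and 19 (300 bases, GRCm38.p6, the assembly called mm10), 80 overlapped a wild-type-only region. Shown are the 250 bases before the gene start for the strongest member at a start (Gm35676), for other members named by the rule (Rd3, Arid5b, Piwil4, Mir100hg), and for Kcnj9 and Hpse, which are among the genes with a member at the start whose RNA rose most. Each runs 5′ to 3′ on the strand of the gene, and capitals mark the bases inside the wild-type-only region.
Gm35676 (chr8:110444392-110444641, minus strand): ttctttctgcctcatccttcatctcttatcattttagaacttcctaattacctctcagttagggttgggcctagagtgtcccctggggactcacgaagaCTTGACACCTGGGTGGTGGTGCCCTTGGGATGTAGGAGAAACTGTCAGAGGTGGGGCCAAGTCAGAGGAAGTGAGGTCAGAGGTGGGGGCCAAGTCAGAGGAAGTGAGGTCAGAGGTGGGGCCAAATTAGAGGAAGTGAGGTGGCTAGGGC
Rd3 (chr1:191977120-191977369, plus strand): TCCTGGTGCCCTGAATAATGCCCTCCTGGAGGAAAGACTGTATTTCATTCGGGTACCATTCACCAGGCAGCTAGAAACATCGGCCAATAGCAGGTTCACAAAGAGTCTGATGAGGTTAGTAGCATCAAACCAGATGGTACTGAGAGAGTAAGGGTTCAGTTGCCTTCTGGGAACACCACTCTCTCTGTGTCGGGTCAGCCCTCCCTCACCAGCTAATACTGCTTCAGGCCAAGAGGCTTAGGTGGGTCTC
Arid5b (chr10:68278727-68278976, minus strand): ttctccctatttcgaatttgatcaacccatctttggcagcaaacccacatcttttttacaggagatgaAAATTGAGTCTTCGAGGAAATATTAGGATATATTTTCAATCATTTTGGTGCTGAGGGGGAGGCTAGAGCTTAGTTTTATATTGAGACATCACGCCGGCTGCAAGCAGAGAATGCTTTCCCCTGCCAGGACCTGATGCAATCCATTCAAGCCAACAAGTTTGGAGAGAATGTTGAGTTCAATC
Piwil4 (chr9:14740673-14740922, minus strand): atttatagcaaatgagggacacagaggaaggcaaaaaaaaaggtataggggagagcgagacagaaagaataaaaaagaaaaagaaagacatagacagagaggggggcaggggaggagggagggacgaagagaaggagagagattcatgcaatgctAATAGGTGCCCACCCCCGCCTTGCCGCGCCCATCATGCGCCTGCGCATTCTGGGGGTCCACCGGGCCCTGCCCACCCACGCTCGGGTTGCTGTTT
Mir100hg (chr9:41474643-41474892, plus strand): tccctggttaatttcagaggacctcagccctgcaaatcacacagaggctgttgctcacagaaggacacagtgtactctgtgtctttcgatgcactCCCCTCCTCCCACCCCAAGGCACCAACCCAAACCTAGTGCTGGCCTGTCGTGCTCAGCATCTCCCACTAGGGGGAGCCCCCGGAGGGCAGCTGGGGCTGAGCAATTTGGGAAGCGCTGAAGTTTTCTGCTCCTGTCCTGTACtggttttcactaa
Kcnj9 (chr1:172329323-172329572, minus strand): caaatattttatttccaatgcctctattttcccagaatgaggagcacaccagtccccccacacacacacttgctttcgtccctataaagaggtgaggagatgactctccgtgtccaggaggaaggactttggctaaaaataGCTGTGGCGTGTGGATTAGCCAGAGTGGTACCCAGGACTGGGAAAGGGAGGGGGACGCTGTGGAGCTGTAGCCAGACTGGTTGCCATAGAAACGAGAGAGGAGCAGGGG
Hpse (chr5:100719717-100719966, minus strand): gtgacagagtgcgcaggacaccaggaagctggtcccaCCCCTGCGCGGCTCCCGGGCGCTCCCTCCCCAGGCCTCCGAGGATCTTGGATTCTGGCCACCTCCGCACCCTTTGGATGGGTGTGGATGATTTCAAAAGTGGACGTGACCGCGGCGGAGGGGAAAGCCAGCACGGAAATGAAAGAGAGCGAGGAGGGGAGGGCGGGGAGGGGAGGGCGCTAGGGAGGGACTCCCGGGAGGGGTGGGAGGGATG
The region covered all of the 250 bases shown for Rd3, 213 for Hpse, 182 for Arid5b, 151 for Gm35676, 142 for Mir100hg, 109 for Kcnj9 and 95 for Piwil4. The region ran on across the start in 6 of the 7 and ended 14 bp before it in Mir100hg.

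The 80 windows at wild-type-only regions were close to all promoters in base content and unlike those at shared regions. Their median GC content was 53.8%, against 53.0% over 31396 windows and 62.3% over the 13649 windows that overlapped a region in all 4 lists, and their median number of CpG dinucleotides was 6, against 7 and 22. Of 15 motifs searched on both strands, the RFX X-box, the site of the RFX factors of cilia and spermatid genes, was in 4 of the 80 windows (5.00%), against 0.704% of all windows and 1.18% of those at shared regions. All 4 matches lay inside the wild-type-only region. They are shown with 5 bases on each side, the match in capitals.
Gm32556 (chr5:65918785-65918808, minus strand): gtagcGTAACCATGGCAACccagt
Gm36185 (chr5:115923549-115923572, minus strand): tctttGTTGCCATGGTAACaggac
Btbd17 (chr11:114796012-114796035, minus strand): aagtaGTTGCCTAGGCAACagcag
Jmjd8 (chr17:25828796-25828819, plus strand): gcgctGTAGCCATGGTAACgcaca
Motifs of CpG-rich promoters were less frequent in these 80 windows than at shared regions. GGGCGG, an SP/KLF motif, was in 25% of them, in 36.0% of all windows and in 66.2% at shared regions, and CGCNTGCG, the NRF1 motif, was in 5.00%, 8.28% and 18%. The ETS motif CCGGAAG was in 2.50%, 9.0% and 18.1%. CNGTTG, a core read by MYB factors such as the pachytene regulator MYBL1, was in 38.8% of the 80 windows, 34.4% of all and 33.6% at shared regions. CCAAT, the NFY motif, was in 37.5%, 37.3% and 38.1%. The CTCF motif and the CRE motif TGACGTCA were in none of the 80, against 0.573% and 1.83% of all windows. Motifs this rare could be absent from 80 windows without any difference. The X-box is also rare, at 0.704% of all windows, and its 4 windows were singled out from a search of 15 motifs. Some windows belong to overlapping starts of the same gene, as for Gm31619, Gal3st1 and Gm36482, so the 80 are not all separate promoters. These are counts of letters in a window, with no test.

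The files behind these regions differed in length and depth. The 4C wild-type lists held 55756 and 59417 peaks, of which 47736 and 49488 lay on autosomes. The 4C knockout lists held 54059 and 57788, of which 51920 and 55233 lay on autosomes. More of the wild-type peaks thus lay off the autosomes. Whether the 4C gate held a different mix of cells in the 2 genotypes was not tested. The cKIT+ list of wild type 1 stood apart with 44697 peaks, against 112518 to 127222 in the other 3. Read counts were not used here, so the depth of the ATAC libraries is unknown and shares of regions carry no interval. Gene starts on chromosome 18 were not used here, and statements on gene starts and nearby genes cover the 2288 members on chromosomes 1 to 17 and 19. The single-cell samples kept 7392 and 12885 cells at a median of 3681 and 4328 UMIs (unique RNA molecules), with 27 cell barcodes in common. A region in all 4 4C lists lay at the start of 10 of 10 synaptonemal complex and HORMA genes and 18 of 19 genes of meiotic breaks and recombination, but also of 18 of 18 cell cycle genes and 19 of 24 spermatogonial regulators, against 49.4% of all genes, so this does not tell the sorted cell type.

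Wild-type-only regions were fewer than their counterparts in cKO. Regions in both cKO and neither wild-type 4C list numbered 4314, or 4.84% of all regions, and the 4 other ways of holding 2 lists, each with 1 wild-type and 1 cKO list, gave 1037 to 2032. A peak in all 4 lists was found in 28050 regions. With peaks of a −log10 q of at least 5 only, the order turned, with 1436 wild-type-only and 780 cKO-only regions. Of those 1436, however, 1316 had a weaker peak in a cKO list, and only 120 had none. With lists of equal length 2188 regions were wild-type-only.

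**Figure D1:**
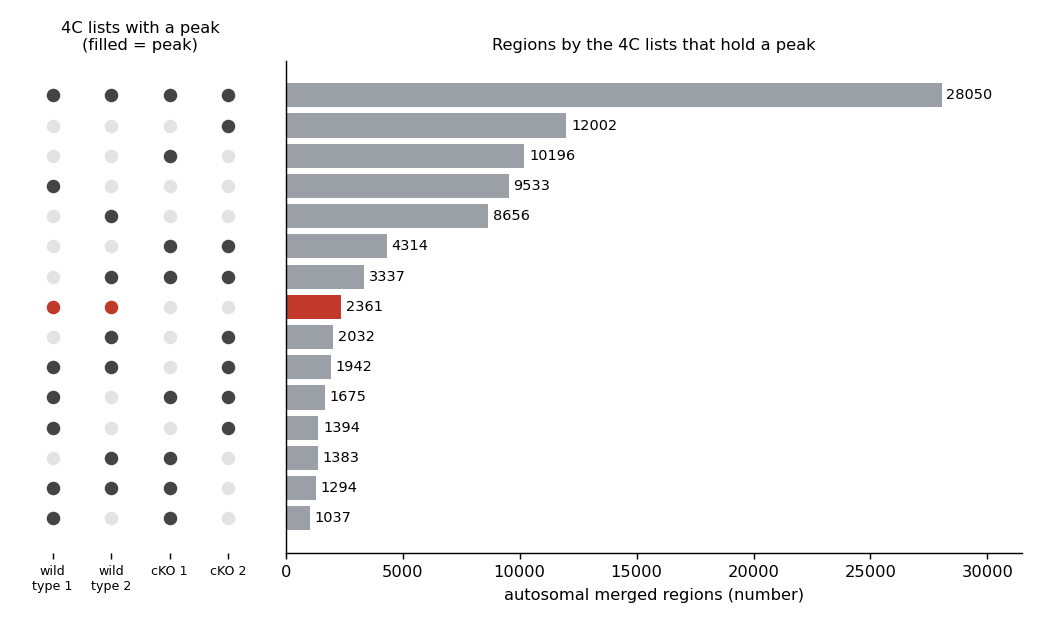
Number of autosomal merged regions (horizontal axis) for each combination of 4C lists that held a peak (filled circles, left). The wild-type-only regions (red, 2361) lie between the cKO-only regions (4314) and the combinations with 1 list of each genotype (1037 to 2032).

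Most of the wild-type-only regions were narrow and weak. Their median width was 329 bp (quartiles 223 and 485 bp), against 792 bp for regions in all 4 lists, and together they covered 898387 bp. The fold enrichment of a peak over its local background, the authors' value, had a median of 3.45 as the mean of both wild-type peaks (quartiles 3.16 and 4.02), against 5.00 for regions in all 4 lists and 3.48 for cKO-only regions. The weaker of the 2 wild-type peaks had a −log10 q under 2 in 1519 members, or 64.3%, whereas the lists began at a −log10 q of about 1. The 50 members nearest that limit had a mean fold of 2.68 to 3.73. The 50 non-members that missed only through a cKO peak at the limit, with a −log10 q of 1.01 to 1.14, had a mean wild-type fold of 1.89 to 6.98, with a median of 3.38. A mean fold of 6 or more was reached by 60 members (2.54%), against 11 cKO-only regions (0.255%), 110 regions in both wild-type lists and 1 cKO list (3.4%) and 32.1% of regions in all 4 lists.

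**Figure D2:**
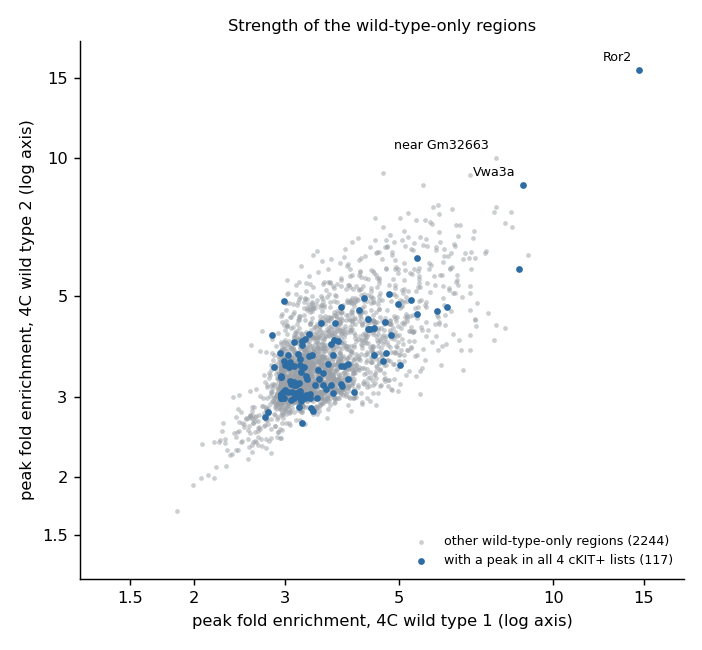
Fold enrichment of the peak in 4C wild type 1 (horizontal, log axis) against wild type 2 (vertical, log axis) for each of the 2361 members. Blue points are the 117 members with a peak in all 4 cKIT+ lists; the strongest member of all, in Ror2, is one of them, and most points lie near a fold of 3 to 4 in both.

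Away from gene starts, the strongest member lay in Ror2, which encodes a receptor for WNT5A. It spanned chr13:53269834-53269989, 156 bp, and had a fold of 14.7 in wild type 1 and 15.6 in wild type 2. The nearest 4C cKO peak was 8988 bp away. In the cKIT+ lists the same stretch had a peak in every library, with folds of 14.1 and 15.5 for the wild-type pair against 17.9 and 16.4 for the cKO pair. Of the 8 lists, only the 4C cKO lists lacked it.

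A member in Vwa3a, a gene of motile cilia and sperm tails, also had a peak in every cKIT+ list. It lay at chr7:120754790-120754950 and had folds of 8.72 and 8.74 in 4C wild type, 4.57 and 8.57 in cKIT+ wild type, and 13.3 and 11.5 in cKIT+ cKO. Other strong members had no cKIT+ peak. They included one at chr10:117990365-117990651, outside genes, with folds of 7.74 and 9.98, and one in Chst11, a chondroitin sulfotransferase, at chr10:83131976-83132153, with 8.29 and 7.62. A member in Ctnna2, which encodes alpha-N-catenin, lay at chr6:77962128-77962263 with 8.30 and 7.05. A member in Far2, a fatty acyl-CoA reductase gene, lay at chr6:148059846-148060195 with 7.68 and 7.62. In each of these the wild-type folds were 7.05 or higher in both libraries and the 4 cKIT+ lists held nothing.

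Distance to what remained in cKO varied widely. The nearest 4C cKO peak lay a median of 6035 bp away (quartiles 2213 and 15316 bp). It lay within 1 kb of 300 members (12.7%), as at the Chst11 site, where it was 670 bp away, and beyond 50 kb from 224 (9.49%). The members were spread over the genome. Their share of all regions ran from 2.12% on chromosome 19 to 3.04% on chromosome 14, and 1250 of 2367 windows of 1 Mb held at least 1. The fullest window, at 112 to 113 Mb of chromosome 5, held 9 members beside 5 cKO-only regions and 29 regions found in all 4 lists.

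Wild-type-only regions were mostly distal. A gene start lay within 1 kb of 139 of 2288 members, or 6.08%, which compares with 7.64% of cKO-only regions, 7.38% of regions with 1 list of each genotype, 17% of all regions and 41% of regions in all 4 lists. The start itself was inside the region in 62 members. Of all 2288 members, 50.6% lay beyond 1 kb from a start in the body of a protein-coding gene, 8.61% in other genes and 34.7% outside genes, the same share as among cKO-only regions (34.7%). The share at starts rose to 20.7% among the 1436 regions that were wild-type-only at a −log10 q of at least 5, most of which kept a weaker cKO peak. No share for all regions at that limit is given, so whether this rise is particular to wild-type-only regions was not tested.

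**Figure D3:**
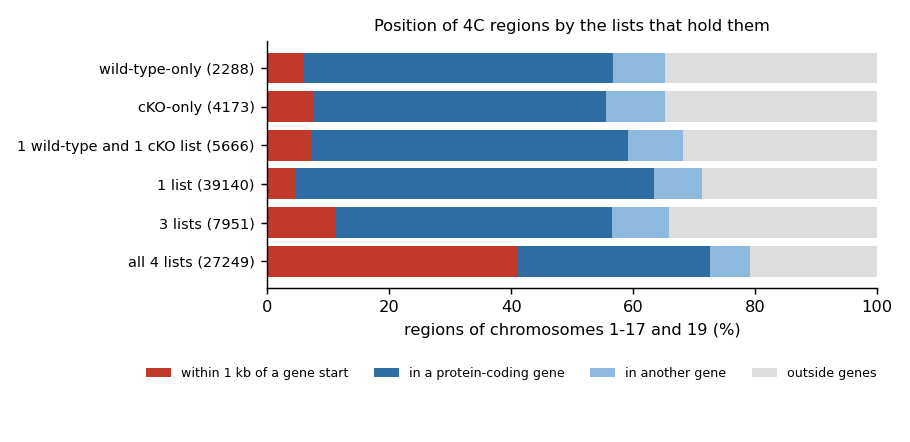
Share of regions (horizontal axis, percent) by position, for regions grouped by the 4C lists that held them (rows, with the number on chromosomes 1 to 17 and 19). Wild-type-only regions have 6.08% at a gene start, near cKO-only regions at 7.64% and far from the 41% of regions in all 4 lists.

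At gene starts the strongest members belonged in large part to non-coding or predicted genes. The strongest lay over the start of Gm35676, a predicted gene inside Hydin, at chr8:110444271-110444542, with folds of 7.03 and 4.43. One 312 bp from the start of Neurog2, which encodes a neuronal transcription factor, lay at chr3:127632595-127632824 with folds of 5.84 and 5.52. A member over the start of Arid5b, a DNA-binding cofactor of histone demethylation, lay at chr10:68278687-68278908 with 4.58 and 5.4. A member over the start of Rd3, known as a regulator of retinal guanylate cyclase, lay at chr1:191976957-191977541 with 4.49 and 4.83. None of these 4 sites had a peak in any cKIT+ list. The other 2 of this rank with a cKIT+ peak, at Gm29879 and Gm36437, had cKIT+ peaks in wild type 2 and in both cKO libraries, with folds of 3.03 to 3.98.

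Few genes of the 13 lists for testis biology had a member at the start, namely Piwil4, Rfx4 and Spaca6. The Piwil4 region, which covered the start of this gene for a nuclear PIWI protein of fetal piRNA silencing, lay at chr9:14740487-14740767 with folds of 4.55 and 3.88 and no cKIT+ peak. The region 513 bp from the start of Rfx4, an X-box binding factor, lay at chr10:84756561-84757037 with 3.03 and 3.62, and only cKIT+ cKO 1 had a peak there, at 2.92. The region 362 bp from Spaca6, a sperm protein needed for fusion with the egg, lay at chr17:17830074-17830613 with 2.73 and 3.35 and no cKIT+ peak. In these 3 regions all wild-type folds lay between 2.73 and 4.55.

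Within 50 kb, members had a listed gene as the nearest start in 36 cases, for 32 genes, and 25 of the 36 regions had no cKIT+ peak. For comparison, 6.09% of all genes with a start were the nearby gene of a member. Among piRNA genes these were Piwil4, Mael, Tdrd1 and Fkbp6, or 4 of 18. Among synaptonemal complex and HORMA genes they were Hormad1 and Hormad2, or 2 of 10, and among flagellar and ciliary genes Dnah10, Dnah17, Tekt4 and Ift27, or 4 of 49. Spermatogonial regulators gave Kit, Lin28a, Sohlh1 and Rara, or 4 of 24, and none of 19 genes of meiotic breaks and recombination was among them. The region in Kit, the receptor used for the sort, lay at chr5:75589644-75589819, with folds of 5.53 and 4.27. Of 2 regions outside Sohlh1, a spermatogonial transcription factor, that at chr2:25857822-25858002 had folds of 6.63 and 4.97.

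One member lay in the targeted gene itself. It spanned chr8:80731720-80732535 in the body of Smarca5, 6924 bp from the start, with folds of 3.02 and 3.10 in wild type and no peak in any cKIT+ list. The labels do not say which exons the deletion takes out, and whether this stretch is part of it was not tested. In the single-cell samples, both cKO, Smarca5 RNA stood at 232 and 165 CPM (the class's UMI count scaled to a common library size) in differentiating spermatogonia-like cells and 42 and 28.7 in pachytene or diplotene-like cells. No wild-type RNA stands beside these values, so they are no check of the deletion.

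In cKIT+ cells the wild-type-only regions were rarely open, and less often than any other regions held by 2 4C lists. Of the 2361 members, 10.4% had a peak in cKIT+ wild type 1, 21.0% in wild type 2, 26.8% in cKO 1 and 23.4% in cKO 2. In the same order cKO-only regions had 20.2%, 31.6%, 39.9% and 36.1%. The 5 other combinations of 2 lists ranged from 15.0% to 22.4% in wild type 1, from 27.1% to 36.5% in wild type 2, from 37.1% to 46.6% in cKO 1 and from 31.6% to 41.9% in cKO 2. The members were therefore below all 5 in each of the 4 libraries, which did not enter the rule for members. Regions in all 4 4C lists had 67.3%, 77.8%, 84.3% and 81.5%. A lower share on the wild-type side was not particular to the members. In every cKIT+ library, regions held by 1 wild-type list alone were below those held by 1 cKO list alone. In cKIT+ cKO 1 these had 14.1% and 18.1% against 20.1% and 25.3%. Regions in both wild-type and 1 cKO list were likewise below those in both cKO and 1 wild-type list. In cKIT+ cKO 1 they had 45.4% and 46.5% against 56.2% and 60.7%.

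**Figure D4:**
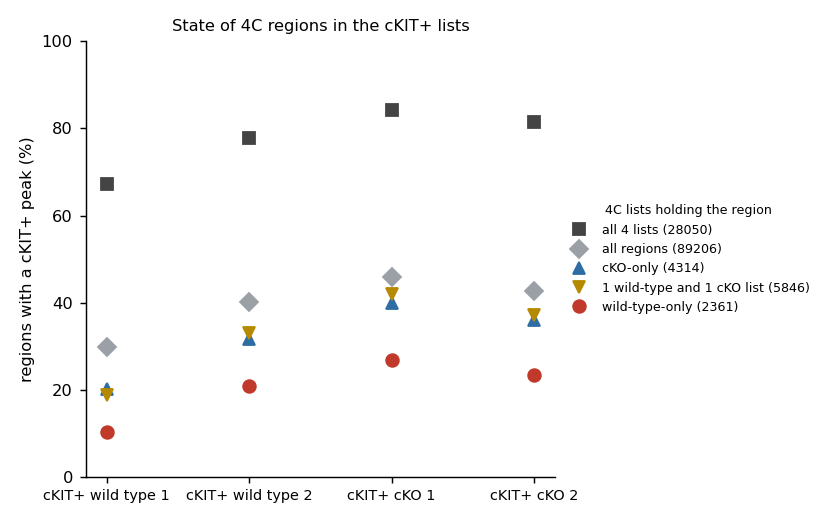
Share of 4C regions with a peak (vertical axis, percent) in each of the 4 cKIT+ libraries (horizontal axis), for regions grouped by the 4C lists that held them. Wild-type-only regions (red) are the lowest of the groups plotted in every library, at 10.4%, 21.0%, 26.8% and 23.4%; regions held by 1 list, not plotted, had 7.88%, 16.4%, 19.8% and 17.1%.

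Among members, a cKIT+ peak was not less frequent in the full cKO lists than in the full wild-type lists, though most members lacked one in each. The mean share with a peak was 15.7% ± 7.49 over the wild-type and 25.1% ± 2.40 over the cKO libraries (SD, n = 2 for each), 9.40 percentage points higher in cKO, with both cKO libraries above both wild-type libraries. The two-sided exact permutation p was 0.333, the smallest that 2 libraries against 2 can give. All 4C regions moved by 9.35 points, from 34.9% ± 7.32 to 44.3% ± 2.26, close to the members' difference. The short list of cKIT+ wild type 1 carried much of the difference, which was 4.11 points without it (exact permutation p = 0.667), and with cKIT+ lists of equal length the sign turned, to −1.76 points (exact permutation p = 0.667).

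Per region, 1544 members (65.4%) had no peak in any cKIT+ list, against 48.5% of all regions, and 117 (4.96%) had one in all 4, against 25.4%. The same loss as in 4C cells, a peak in both cKIT+ wild-type lists and neither cKIT+ cKO list, was found in 26 members, or 1.10%, where all regions had 0.54%. The opposite state, a peak in both cKO and neither wild-type cKIT+ list, was found in 105 members (4.45%), where all regions had 3.52%. Among these 26 members, the strongest by cKIT+ fold lay outside genes at chr1:109158166-109158335, with 3.86 and 5.24 in 4C wild type and 4.28 and 3.35 in cKIT+ wild type. Others lay in Spata16, a gene of acrosome formation (chr3:26724927-26725588, cKIT+ 3.92 and 3.28), in Rora, a nuclear receptor gene (chr9:69099673-69100150, 3.50 and 3.16), and in Clasp2, a microtubule-binding protein gene (chr9:113774844-113775451, 3.27 and 3.39).

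Members open in all 4 cKIT+ lists are described by the 10 with the highest cKIT+ folds. The region in Atp2a1, a calcium pump gene, at chr7:126453754-126454057 had 3.19 and 3.72 in 4C wild type, 9.36 and 12.1 in cKIT+ wild type and 13.0 and 17.4 in cKIT+ cKO. A region 34668 bp from Abl2, a tyrosine kinase gene, at chr1:156523982-156524119 had 8.56 and 5.72, then 5.63 and 6.44, then 12.7 and 14.6. A region in Gmps, an enzyme gene of guanine nucleotide synthesis, at chr3:63999063-63999322 had 3.12 and 3.97, then 6.75 and 8.71, then 10.8 and 11. At the start of the microRNA host gene Mir100hg, a region at chr9:41474738-41474879 had folds of 4.35 and 4.45, then 3.96 and 8.55, then 10.5 and 8.12. Folds are relative to each library's own background, so they show rank within a list and not a change between lists.

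The share of members open in cKIT+ cells did not move in 1 direction with the strength of the 4C peak. Between the 787 weakest and the 787 strongest members the share fell in both wild-type lists and rose in both cKO lists. Only the 60 strongest had the lowest share in 3 of the 4 libraries. The 60 members with a mean fold of 6 or more had 10.0% and 10.0% in the cKIT+ wild-type lists and 15.0% and 15.0% in the cKO lists. Among the 787 members with the highest fold (3.75 or more), 8.51% and 18.7% had a peak in the cKIT+ wild-type lists and 27.4% and 24.4% in the cKO lists. Among the 787 with the lowest (3.25 or less) the shares were 11.8%, 21.7%, 24.8% and 21.6%. Members at a gene start were more often open, at 12.2%, 38.1%, 39.6% and 38.1%, than members away from one, at 10.1%, 19.5%, 25.6% and 22.1%.

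The members pointed to 1569 nearby genes, defined as those with a start within 1 kb or otherwise the nearest start within 50 kb. Of these genes, 75.3% (7.16% of the genes near regions in all 4 lists) were also the nearby gene of such a region, as were 64.1% of all genes with a start. A cKO-only region was near 308 of them (19.6%, or 10.6% of the genes near cKO-only regions) and near 11.3% of all genes. In the single-cell samples 1154 nearby genes had a matching row and 837 had enough UMIs to be tested. The rest were unmatched or too low, so the counts below are of the detected genes and not of all. The comparisons set pachytene or diplotene-like spermatocytes (1978 and 2530 cells), differentiating spermatogonia-like cells (402 and 617), leptotene or zygotene-like cells (885 and 1572) and round spermatid-like cells (1239 and 2464) against each other within cKO testes. UMIs were summed per sample and class and tested with edgeR's quasi-likelihood test, with sample as a block and Benjamini-Hochberg adjustment over 18657 genes, and a gene counts as changed at an adjusted p under 0.05.

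Genes near the wild-type-only regions were divided between the stages. From differentiating spermatogonia-like to pachytene or diplotene-like cells, 260 of the 837 rose (31.1%) and 248 fell (29.6%), where 24.8% of all genes rose and 32.0% fell. Their median log2 change was 0.08, or 0.00 with the 34 genes that had no UMI in one class set at their bound, against −0.22 for all genes. Genes near regions in all 4 lists had 26.4% risen and 36.2% fallen, and those near cKO-only regions 22.2% and 35.1%. From leptotene or zygotene-like to pachytene or diplotene-like cells, 186 rose (22.2%) and 198 fell (23.7%), where all genes had 19.2% and 28.1%. From pachytene or diplotene-like to round spermatid-like cells, 231 rose (27.6%) and 229 fell (27.4%), where all genes had 33.1% and 22.8%. Scaling by the RLE method moved the median of all genes in the leptotene or zygotene comparison from −0.29 to −0.12. The nearby genes then had 25.8% risen and 19.5% fallen, and all genes 22.0% and 24.6%.

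The smaller set with a member within 1 kb of the start had more rising than falling genes among those tested. Of 144 such genes 60 could be tested. From spermatogonia-like to pachytene or diplotene-like cells 21 of the 60 rose (35.0%) and 8 fell (13.3%), where all genes had 24.8% and 32.0%. From pachytene or diplotene-like to round spermatid-like cells 26 rose (43.3%) and 6 fell (10.0%), where all genes had 33.1% and 22.8%. The median log2 changes were 0.44 and 0.99, and the first became 0.21 with the 2 genes that had no UMI in one class at their bound. Most of these genes were low. Their median in replicates 1 and 2 was 1.72 and 1.35 CPM in spermatogonia-like cells, 3.07 and 2.87 in pachytene or diplotene-like cells and 7.41 and 8.96 in round spermatid-like cells, against 8.95 and 9.87, 6.54 and 6.11, and 9.67 and 9.59 over all tested genes with a reference symbol. The classes also differed in depth, with a median of 2013 and 2065 UMIs per spermatogonia-like cell and 8135 and 10933 per pachytene or diplotene-like cell. The filter on low counts could be passed through the later classes alone, also by genes low in spermatogonia-like cells. The part of depth and of this filter in these shares was not tested. Shares for genes with other kinds of region at the start are not given.

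**Figure D5:**
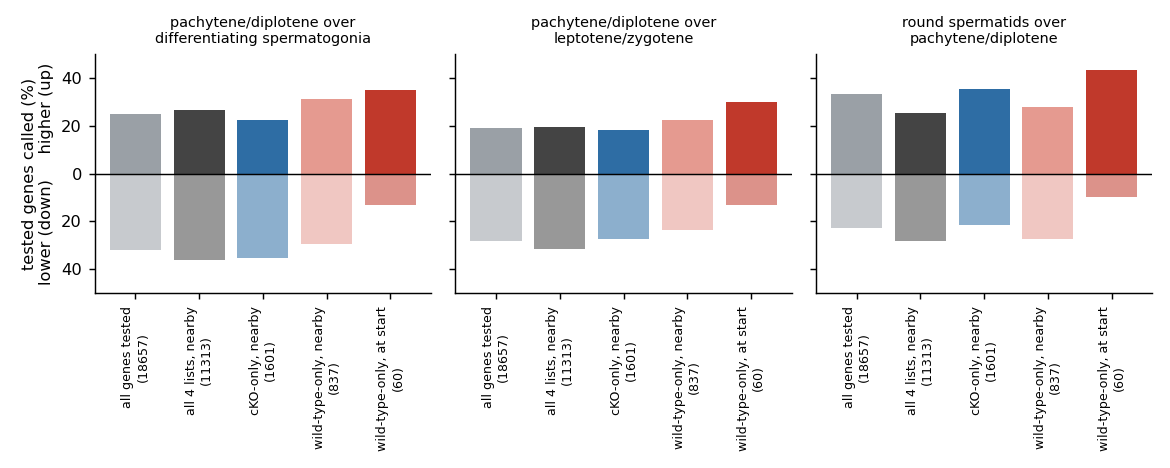
Share of tested genes called higher (up) or lower (down, lighter) at an adjusted p under 0.05, in percent, for 3 comparisons of cell classes in cKO testes; numbers in brackets are genes tested. Genes with a wild-type-only region at the start (60) have 35.0% higher and 13.3% lower in pachytene or diplotene-like over spermatogonia-like cells, where all genes have 24.8% and 32.0%.

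Among genes with a member at the start that rose in pachytene or diplotene-like cells were Kcnj9, Rd3, Hpse and Mir100hg. Kcnj9, a potassium channel subunit, stood at 0.69 and 0.45 CPM in spermatogonia-like cells and at 28.7 and 25.2 in pachytene or diplotene-like cells, a log2 change of 5.55 ± 0.75 (SE, edgeR adjusted p = 4.9e-07). Rd3 went from 0.00 and 0.45 to 4.34 and 7.70, a log2 change of 4.42 ± 0.87 (edgeR adjusted p = 8.6e-05), and was higher again in round spermatid-like cells at 20.4 and 35.2. Hpse, the heparan sulfate-cleaving enzyme heparanase, went from 1.38 and 1.35 to 13.2 and 19.7, a change of 3.59 ± 0.66 (edgeR adjusted p = 3.5e-05). It was also high in macrophage-like cells at 42.9 and 20.4. Mir100hg went from 2.07 and 0.45 to 37.5 and 24.4, a change of 4.75 ± 0.61 (edgeR adjusted p = 2.2e-07), and the same start was open in all cKIT+ lists. These 4 genes were picked for their rise in this comparison, so the lack of overlap between the 2 classes follows from the choice. The spermatogonia-like values rest on few UMIs, 1 and 1 for Kcnj9, 0 and 1 for Rd3, 2 and 3 for Hpse and 3 and 1 for Mir100hg. By summed UMIs over both samples the ratio of rates was 33.97 for Kcnj9 (95% exact interval 9.38 to 281) and 16.3 for Rd3 (2.90 to 646), covering counting error only. With doublets kept the log2 changes were 3.86 for Kcnj9, 2.25 for Rd3, 2.65 for Hpse, 4.45 for Mir100hg and 3.67 for Gm34099, all still past the threshold. The others of the 10 that rose most were 4931431C16Rik, Gm34099, 1700123J17Rik, D830026I12Rik, Gm31392 and Frs3os, with log2 changes of 3.65 to 6.39 for the 5 that had UMIs in spermatogonia-like cells. 4931431C16Rik had none there, and 4.34 and 4.39 CPM in pachytene or diplotene-like cells. Frs3os is named for its position antisense to Frs3, and reads of such a pair can be hard to assign.

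Of the genes with a member at the start, 8 fell. P3h3, a collagen prolyl hydroxylase gene, stood at 42.7 and 52.1 CPM in spermatogonia-like and 0.16 and 0.10 in pachytene or diplotene-like cells, a log2 change of −8.39 ± 0.68 (edgeR adjusted p = 2.4e-10). Gal3st1, the sulfotransferase of seminolipid synthesis, went from 10.3 and 46.2 to 0.16 and 0.48, a change of −6.29 ± 0.61 (edgeR adjusted p = 3.1e-09). Piwil4 went from 5.51 and 4.49 to 0.05 and 0.03, a change of −6.34 ± 0.99 (edgeR adjusted p = 5.4e-06). These values rest on 8 and 10 UMIs in spermatogonia-like and 1 and 1 in pachytene or diplotene-like cells. The Piwil4 start was thus open in 4C-sorted wild-type cells, while Piwil4 RNA in pachytene or diplotene-like cells of cKO testes was near 0. These are different genotypes and differently defined cells, so open state and RNA were not compared within the same cells. Ankrd6, Zfp772, Fxyd6, Zzz3 and Erbb4 fell by less, with log2 changes of −1.50 to −3.52. Zfp772 had only 4 and 5 UMIs in spermatogonia-like cells. The calls of Zfp772 and Erbb4 were lost with no filter on low counts (edgeR adjusted p = 0.080 and 0.132), and that of Erbb4 also with doublets kept (edgeR adjusted p = 0.146). Fxyd6 was highest in Leydig-like cells (179.9 and 316.8 CPM) and Erbb4 in Sertoli-like cells (83.4 and 107.7). The part of somatic RNA in the spermatogonia-like sums was not tested.

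Genes of the strongest and the listed members varied in the same way. Rfx4 rose from 10.3 and 4.94 to 80.5 and 49.0 CPM from spermatogonia-like to pachytene or diplotene-like cells, a log2 change of 3.12 ± 0.45 (edgeR adjusted p = 1.1e-06). Spaca6 did not pass there (2.07 and 0.90, then 2.01 and 2.00, edgeR adjusted p = 0.511) and rose in round spermatid-like cells to 48.5 and 117.2, a change of 5.28 ± 0.45 (edgeR adjusted p = 1.5e-10). Vwa3a and Arid5b passed the test at that later step and not at the earlier one, with log2 changes of 3.97 ± 0.44 and 3.06 ± 0.55 (edgeR adjusted p = 1.1e-08 and 2.9e-05). The difference between the 2 steps was not tested. Neurog2 had 1 UMI in spermatogonia-like cells of each sample and 1 in pachytene or diplotene-like cells of replicate 2, and was not tested. Ror2, with the strongest member in its body, stood at 2.97 and 2.73 CPM in pachytene or diplotene-like cells, and did not pass in any of the 3 comparisons (edgeR adjusted p = 0.733, 0.892 and 0.201).

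Of the 32 list genes near a member, 31 were tested, and 10 rose and 12 fell from spermatogonia-like to pachytene or diplotene-like cells, where 140 of the 343 tested genes of all lists rose and 99 fell. The 4 flagellar genes all rose, Dnah10, Dnah17, Ift27 and Tekt4, with log2 changes of 2.61, 3.89, 2.88 and 3.35, as did 45 of all 57 tested genes of that list. The 4 spermatogonial regulators all fell, as did 20 of 26 in that list. Kit went from 49.6 and 57.5 to 0.58 and 0.59, Sohlh1 from 53.7 and 118.5 to 0.00 and 0.28 and Lin28a, an RNA-binding pluripotency factor, from 27.5 and 30.5 to 0.37 and 0.17. Of the 4 piRNA genes Mael and Tdrd1 rose, while Piwil4 and Fkbp6 fell, where the list had 13 higher and 6 lower of 23. Hormad1 and Hormad2, which mark unsynapsed chromosome axes, did not pass (edgeR adjusted p = 0.070 and 0.490). Both were highest in leptotene or zygotene-like cells, at 907.1 and 1065.0 CPM for Hormad1 and 276.9 and 258.4 for Hormad2. Ldhc, the germ-cell lactate dehydrogenase, with 1 member in the gene and 1 beyond it, rose from 373.1 and 457.4 to 6944 and 11478. Kit, Sohlh1, Hormad1 and Ldhc were among the fixed markers that named these classes. Their differences between classes are therefore partly set by the naming and are no separate result.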

How the data were processed

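The data were 8 ATAC-seq peak lists and 2 single-cell RNA count matrices from mouse testis. Reads were trimmed with cutadapt, aligned with Bowtie2 to mm10 and peaks called with MACS2 per library, per the submitters' processing notes. The deposited broad peak lists give a fold enrichment ratio per peak, −log10 p and q values and a score, all the authors' values. UMI counts in the matrices came from Cell Ranger 7.1.0 and 9.0.1, per the file headers. The depth of the ATAC libraries is unknown.

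Members and gene lists were chosen with earlier results of these data known. Peaks sharing 1 bp were merged across the 4C lists. Gene starts came from RefSeq (GRCm38.p6), and those on chromosome 18 were not used here. Named regions were the 10 strongest by mean wild-type fold at and away from starts, the 10 strongest by cKIT+ fold in each of 2 cKIT+ states, and list genes at a start. Named genes were those of these regions and the 10 genes at a start that rose most and the 10 that fell most past the threshold.

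Cells were clustered with scanpy 1.11.5, doublets removed (706 and 1377), and classes named from fixed markers by a rule set after the clusters were seen; 14.0% and 17.7% of cells stayed unnamed. Counts summed per sample and class were tested with edgeR 4.0.16 in R 4.3.3, with TMM scaling, a filter on low counts and sample as a block, after tests on simulated data. DESeq2 1.42.0 was an alternative. Each of the 2 samples gave cells to every class compared, which is where the pairing comes from. cKIT+ shares were compared by an exact permutation test over libraries.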

Additional observations from a re-analysis of the deposited data

How the results depend on the processing

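Of the count of wild-type-only regions, the cKIT+ difference, the share at gene starts and the expression shares, most alternatives kept direction and size. The exceptions are these. The number of wild-type-only regions was 1436 with only peaks of −log10 q 5 or above, and 3672 to 12040 with any 1 of the 4 libraries left out (3672 without cKO 1, 4303 without cKO 2, 11131 without wild type 1 and 12040 without wild type 2). The share at a gene start was 10.2% with a 2500 bp limit and 20.7% for the regions of a −log10 q of at least 5. The cKIT+ difference, 9.40 points, reversed to −1.76 points with lists of equal length (exact permutation p = 0.667) and ran from 4.11 to 14.7 with 1 library left out. With the replicate number as a block it was 9.40 points with an exact p of 0.5, and the number is not stated to mark a shared animal. With no filter on low counts, 16.4% of nearby genes fell from spermatogonia-like and 12.2% from leptotene or zygotene-like to pachytene or diplotene-like cells, near the 16.6% and 14% of all genes. With genes at a start only, 13.3% fell in each of these, where all genes had 32.0% and 28.1% fallen. In round spermatid-like cells 43.3% rose and 10.0% fell, where all genes had 33.1% and 22.8%. The median log2 change of nearby genes was 0.44 with genes at a start only and −0.19 for the regions of a −log10 q of at least 5. The median of all genes in the first comparison was −0.22, and 0.46 with no filter and 0.14 with doublets kept. Of 90 values for named genes under alternatives, 87 kept their call and 3 lost it, those of Zfp772 (no filter) and Erbb4 (no filter, doublets kept).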
